A study of Mus musculus with 12 samples.

Results

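The Zic genes encode zinc-finger transcription factors, and 4 of them, Zic1, Zic2, Zic4 and Zic5, were followed here in cultured mouse embryonic fibroblasts, out of 19938 genes with a probe set of their own on the array. Each gene was represented by the probe set annotated with its symbol alone, and by the one with the highest mean where there were several, as for Zic4 and Zic5. The family was picked because Zic1 was higher in all 3 mTERT KO cultures than in their wild-type partners. That difference is therefore described below and not tested.

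The study compared fibroblasts that lack telomerase with wild-type ones, in 4 groups of 3 cultures with 1 array each. The groups were mTERT KO (no telomerase reverse transcriptase), mTERT WT, mTR KO (no telomerase RNA) and mTR WT. All cultures came from male C57BL/6J embryos of stages E12.5 to E14.5 and were taken at passage 5, and both knockouts were of the first generation, G1. According to the study design, wild-type and knockout embryos of a set were littermates. The labels do not name the targeted alleles or the embryonic parts that were cultured.

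Zic proteins carry a run of C2H2 zinc fingers related to that of the Gli factors, through which hedgehog signals act. In the mouse embryo they mark dorsal tissue: the roof of the neural tube, the neural crest, the dorsal somites and the mesenchyme that forms meninges and the dermis of the back. Zic1 and Zic4 are adjacent on chromosome 9 and Zic2 and Zic5 on chromosome 14, each pair transcribed away from each other. Loss of ZIC2 causes holoprosencephaly in humans, deletion of ZIC1 with ZIC4 has been linked to malformation of the human cerebellum, and Zic5 is needed for neural crest in the mouse.

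The starts of the neighbours Zic1 and Zic4 are shown because only Zic1 had a signal above background in these cells. Both sequences run 5′ to 3′ over 300 bases around a start site, most of them before it, in the RefSeq annotation of build GRCm38.p6, with CpG dinucleotides in capitals. That of Zic1 lies at chr9:91365719-91366018 on the minus strand and that of Zic4 at chr9:91368722-91369021 on the plus strand.
Zic1: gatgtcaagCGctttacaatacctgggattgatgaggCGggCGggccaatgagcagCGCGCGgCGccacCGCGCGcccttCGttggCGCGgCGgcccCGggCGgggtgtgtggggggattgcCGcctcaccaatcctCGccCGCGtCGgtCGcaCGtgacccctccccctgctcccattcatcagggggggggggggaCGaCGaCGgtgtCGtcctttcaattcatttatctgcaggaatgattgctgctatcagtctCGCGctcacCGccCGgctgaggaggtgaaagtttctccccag
Zic4: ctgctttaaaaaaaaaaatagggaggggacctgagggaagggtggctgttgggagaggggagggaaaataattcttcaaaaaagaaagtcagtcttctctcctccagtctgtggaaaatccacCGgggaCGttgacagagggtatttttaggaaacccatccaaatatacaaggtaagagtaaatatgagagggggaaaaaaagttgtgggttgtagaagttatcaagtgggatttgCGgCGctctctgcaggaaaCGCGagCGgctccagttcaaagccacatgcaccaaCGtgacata
The Zic1 window held 31 CpG dinucleotides and 65.3% G and C, and 10.6% of the 32851 promoter windows in the table held at least as many CpG. The Zic4 window held 8 CpG and 46.0% G and C, with 48.6% of windows holding at least as many. The table also held Zic5, whose window at chr14:122465609-122465908 on the minus strand had 15 CpG and 62.7% G and C. These counts describe the sequence at 1 annotated start per gene and do not measure its use in fibroblasts.

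The deposited values were log2 signals of 28853 probe sets per array, with correlations between arrays from 0.984 to 0.997. Background was taken from the 1035 odorant receptor probe sets, genes that fibroblasts should not use. Their 95th percentile lay between 4.93 and 5.09 on the 12 arrays, and a signal was called above background when it exceeded that of its own array. Tert, the targeted gene of the mTERT line, read 4.75 to 4.99 in mTERT KO cultures and 5.51 to 5.74 in mTERT WT cultures. Terc, targeted in the mTR line, did not pass background in any culture, so the array does not check that label. All 15 fibroblast markers, among them Col1a1, Vim and Prrx1, were above background in all 12 cultures, as were all 12 macrophage markers. Of 8 endothelial markers 6, among them Pecam1, Cdh5 and Kdr, were above it in none, while Emcn and Cldn5 passed in 3 cultures each. Of 10 epithelial markers 4, among them Epcam, were above it in none, while Krt8 and Krt19 passed in all 12.

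Zic1, which induces neural crest in frog embryos, was the only Zic gene above background in every culture, by 0.23 to 1.70 log2 units. Its log2 signal was 6.01, 6.37 and 6.53 in mTERT KO cultures 1 to 3, against 5.52, 5.21 and 5.51 in mTERT WT cultures 1 to 3. It was 5.91, 6.69 and 6.18 in mTR KO cultures 1 to 3, against 6.05, 6.44 and 5.53 in mTR WT cultures 1 to 3. The mTERT groups did not overlap, the mTR groups did, and the 3 mTERT WT cultures were the lowest of all 12. The mTERT KO cultures lay within the range of the mTR cultures.

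Ordered by mean, Zic1 read 6.30 ± 0.27 in mTERT KO, 6.26 ± 0.40 in mTR KO, 6.00 ± 0.46 in mTR WT and 5.41 ± 0.17 in mTERT WT cultures (log2 signal, SD, n = 3 each). The first 3 groups differed from their neighbours in this order by less than their SD. The step to mTERT WT was larger than either SD, but the lowest mTR WT culture, number 3 at 5.53, lay only just above the highest mTERT WT culture at 5.52. A signal from a whole culture cannot tell fewer Zic1-expressing cells from less Zic1 RNA per cell.

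**Figure D1:**
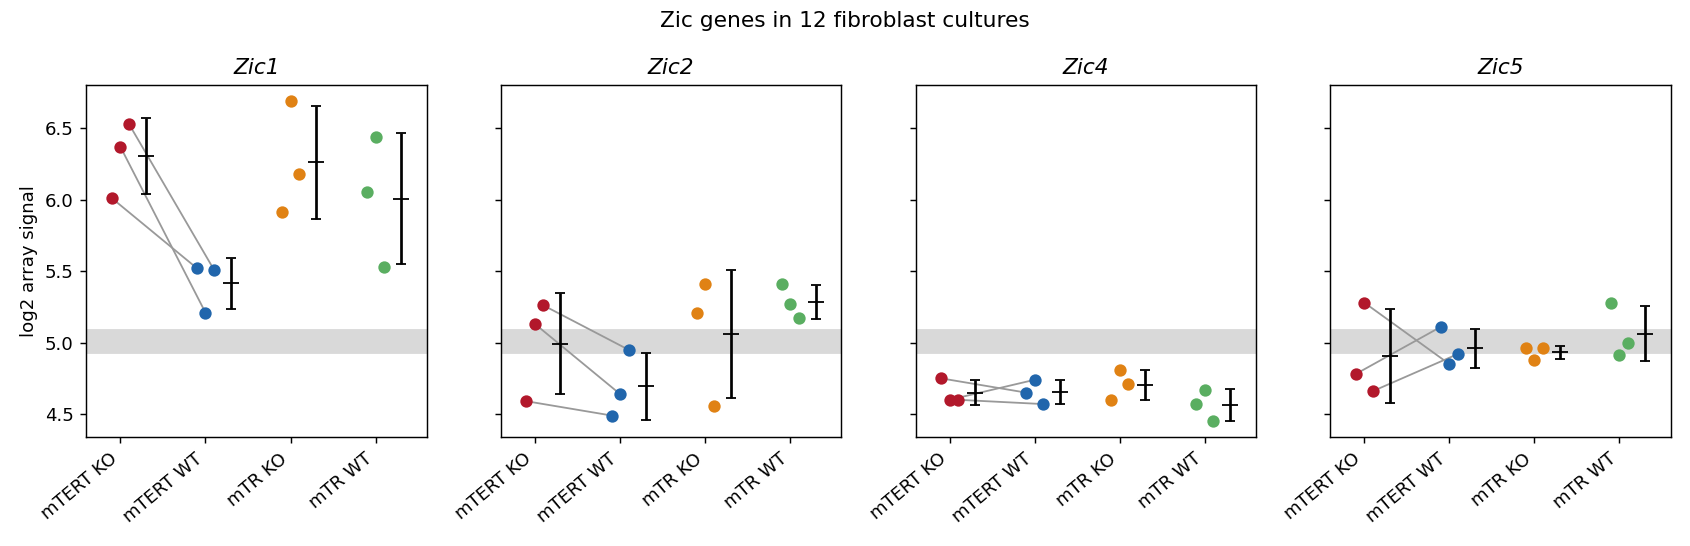
Log2 array signal of Zic1, Zic2, Zic4 and Zic5 in 12 cultures; points are cultures 1 to 3 from left to right in each group, bars are mean ± SD (n = 3), grey lines join mTERT KO and WT cultures of the same number, and the grey band spans the background level of the 12 arrays (4.93 to 5.09). Zic1 lies above the band in every culture and is lowest in the 3 mTERT WT cultures, Zic4 lies below it in every culture, and Zic2 and Zic5 lie around it.

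Within the mTERT line the cultures of the same number behaved as pairs, and Zic1 was higher in the knockout in each pair. The differences in log2 signal, knockout minus wild type, were 0.49, 1.15 and 1.02 in pairs 1, 2 and 3, or 1.41-fold, 2.23-fold and 2.02-fold. Their mean was 0.89 ± 0.35 (SD over 3 pairs), a ratio of 1.85. A knockout signal above that of its partner in 3 of 3 pairs was seen for 12.6% of all probe sets, and every knockout above every wild type for 2.88%. Since this contrast chose the gene, nothing is read from these shares.

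The pairs differed little in their own Zic1 level, with means of 5.76, 5.79 and 6.02 over both genotypes. In the mTR line, where the numbers did not behave as pairs, genotype accounted for 11.8% of the variance of Zic1. Cultures number 2 of that line, at 6.69 in mTR KO and 6.44 in mTR WT, were the highest of their groups.

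Loss of the other telomerase subunit gave a test of Zic1 on cultures that the choice of the gene had not used. Zic1 differed by 0.26 ± 0.24 between mTR KO and mTR WT cultures (log2, SE, limma, adjusted p = 0.870), with a 95% interval from −0.28 to 0.79. The difference was smaller than the spread within either group. That interval held 0. It is not set against the mTERT differences, which chose the gene and have an error of their own. Of 28853 probe sets 0 passed a 5% false discovery rate in this comparison (0%), and 1679 had an unadjusted p below 0.05 with limma. The difference was 0.04 without mTR KO 2 and 0.02 without mTR WT 3, but 0.43 without mTR KO 1, 0.47 without mTR WT 2 and 0.55 with array weights (adjusted p = 0.400). With only the 6 mTR arrays in the fit it was 0.26 ± 0.27 (limma, adjusted p = 0.877).

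The difference between the 2 knockout effects on Zic1 was not tested, because one of them had chosen the gene. The level of the whole lines was compared with both genotypes weighted equally. Zic1 averaged 5.86 over the 6 mTERT cultures and 6.13 over the 6 mTR cultures, a difference of −0.28 ± 0.17 (limma, adjusted p = 0.882, 95% interval −0.65 to 0.10). It averages a small difference between the knockouts (6.30 in mTERT KO and 6.26 in mTR KO cultures) and a wider one between the wild types (5.41 in mTERT WT and 6.00 in mTR WT cultures), and it includes the mTERT values by which the gene was chosen. The value was −0.17 without mTR KO 2 or without mTR WT 2. Over all probe sets 5 passed in that comparison, or 0.0173%. Line, litter and any batch cannot be told apart in it.

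Zic2, required for closure of the neural tube and for forebrain midline development in the mouse, was near background. Its log2 signal was 4.59, 5.13 and 5.26 in mTERT KO cultures, against 4.49, 4.64 and 4.95 in mTERT WT cultures. It was 5.21, 5.41 and 4.56 in mTR KO cultures, against 5.41, 5.27 and 5.17 in mTR WT cultures. It passed background in 7 of 12 cultures: 2 of 3 mTERT KO, none of the mTERT WT, 2 of 3 mTR KO and all 3 mTR WT. Only 1 of these cultures also passed the 99th percentile of odorant receptor probe sets.

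For mTERT WT the Zic2 signal is thus only a bound, and no fold is given for that comparison. Zic2 differed by −0.22 ± 0.22 between mTR KO and mTR WT cultures (limma, adjusted p = 0.880, 95% interval −0.71 to 0.27). That value rested on mTR KO 3, the culture at 4.56: without it the difference was 0.03. It was −0.39 without mTR KO 2 and −0.07 with array weights. Of the mTERT cultures 4 of 6 and of the mTR cultures 1 of 6 lay below background for Zic2.

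Zic5, which adjoins Zic2 and acts in neural crest formation, passed background in 5 of 12 cultures. Its log2 signal was 4.78, 5.28 and 4.66 in mTERT KO cultures, against 5.11, 4.85 and 4.92 in mTERT WT cultures. It was 4.96, 4.88 and 4.96 in mTR KO cultures, against 5.28, 4.91 and 5.00 in mTR WT cultures. Both pairs of groups overlapped, and the mTERT pairs differed in both directions, by −0.33, 0.43 and −0.26. Between mTR KO and mTR WT cultures Zic5 differed by −0.13 ± 0.15 (limma, adjusted p = 0.897, 95% interval −0.46 to 0.20). That value was −0.02 without mTR WT 1 and −0.20 without mTR WT 2.

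The second probe set of Zic5 did not follow the first. It ranged from 4.47 to 5.45, passed background in 4 of 12 cultures and correlated with the first at −0.204 over the 12 cultures. Its mTR difference had the opposite sign, 0.14 ± 0.22 (limma, adjusted p = 0.927). The signal assigned to Zic5 is therefore uncertain at this level.

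Zic4, the neighbour of Zic1, was below background in all 12 cultures with both of its probe sets. The brighter one ranged from 4.45 to 4.81 and the other from 4.37 to 4.75, and neither passed even the 90th percentile of odorant receptor probe sets in any culture. No difference between groups is given for it. The adjacent Zic1, by contrast, passed the 99th percentile in 11 of 12 cultures. The culture mTR KO 2 held the highest value of the 12 for Zic1, for both Zic4 probe sets and for the second Zic5 probe set. On the first Zic5 probe set it ranked only 9 of 12, at 4.88 and below background. For Zic2 it and mTR WT 1 were highest, both at 5.41 when rounded to 2 decimals.

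**Figure D2:**
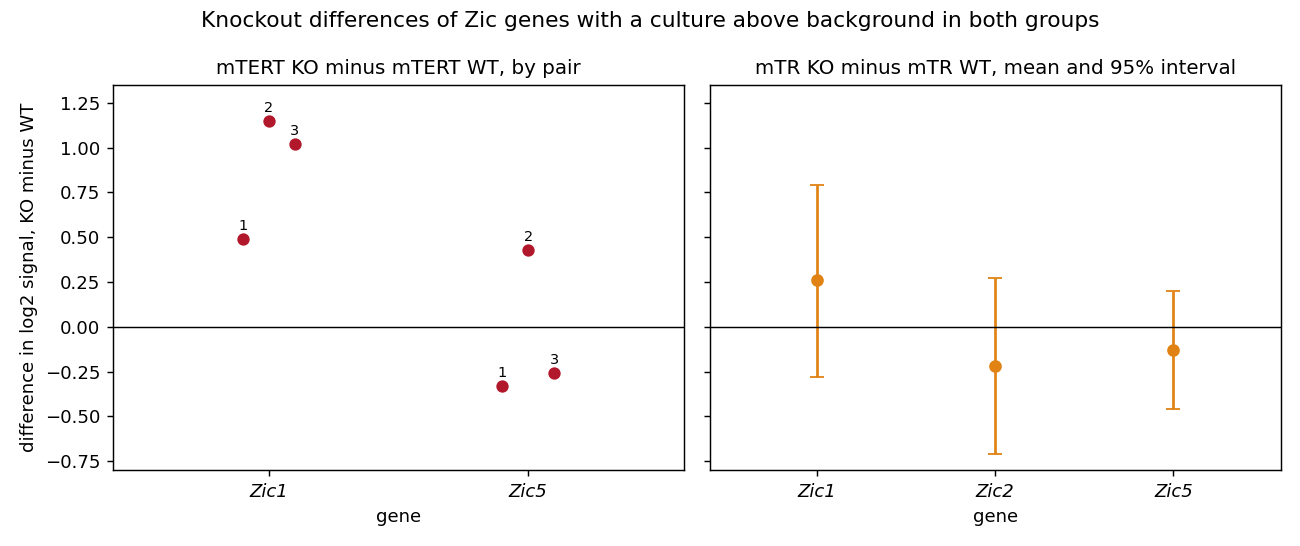
Differences in log2 signal, knockout minus wild type; on the left each point is an mTERT pair, numbered, and on the right each point is the mean of the mTR comparison with its 95% interval (n = 3 per group). Zic4 and the mTERT comparison of Zic2 are left out since a group had no culture above background. Zic1 is above 0 in all 3 mTERT pairs (0.49, 1.15 and 1.02), and each mTR interval includes 0.

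The Zic genes did not vary together in a way that passed the test. Correlations were computed over 9 units, the means of the 3 mTERT pairs and the 6 mTR cultures, for the 6 combinations of genes. The largest was that of the neighbours Zic1 and Zic4, with Pearson r = 0.722 (exact permutation p = 0.0285, adjusted p = 0.171, n = 9) and Spearman rho = 0.550 (exact permutation p = 0.133, adjusted p = 0.375, n = 9). It rested on the 2 units farthest from the median of Zic1, without which r was 0.0729 (exact permutation p = 0.880, n = 7), and Zic4 was within background throughout. Zic1 and Zic2 gave r = 0.379 (exact permutation p = 0.315, adjusted p = 0.684, n = 9) and rho = 0.567 (exact permutation p = 0.121, adjusted p = 0.375, n = 9), with r = 0.358 on 7 units (exact permutation p = 0.431).

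The other neighbours, Zic2 and Zic5, gave r = 0.151 (exact permutation p = 0.706, adjusted p = 0.706, n = 9) and rho = −0.0167 (exact permutation p = 0.982, adjusted p = 0.982, n = 9), with r = 0.148 on 7 units (exact permutation p = 0.758). The remaining combinations had r between −0.306 and −0.217, with an adjusted p of 0.684 each (exact permutation, n = 9). Their rho was −0.433 for Zic1 and Zic5, −0.483 for Zic4 and Zic5 (adjusted p = 0.375 for both, exact permutation, n = 9) and −0.117 for Zic2 and Zic4 (adjusted p = 0.931, exact permutation, n = 9).

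The genes whose pattern over the 12 cultures was most like that of Zic1 were sought among 14255 probe sets of 1 gene above background in at least 3 cultures. Mrpl32, a mitochondrial ribosomal protein, had the highest Pearson correlation at 0.838 (Spearman 0.811), followed by Tmem234 at 0.827, Tmem185b at 0.813, F8a at 0.788 and Actr6 at 0.780. These genes moved over a narrow range: Mrpl32 read 7.70 to 8.07, against 5.21 to 6.69 for Zic1.

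At the other end stood Stx2, a syntaxin of membrane fusion, at −0.836, Napepld, an enzyme of N-acylethanolamine synthesis, at −0.826 and Fgf10, a ligand of limb and lung outgrowth, at −0.785 (Spearman −0.741). Fgf10 spanned a range as wide as that of Zic1: it read 5.54, 5.24 and 5.28 in mTERT KO cultures and 5.76, 6.73 and 6.44 in mTERT WT cultures. Among the other cultures Fgf10 stood at 5.24, 5.26 and 5.32 in mTR KO cultures and at 5.65, 4.88 and 5.42 in mTR WT cultures. These correlations are descriptions, picked from many, over cultures that include the mTERT pairs.

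For the other genes the leading correlations reached a like size. Zic2 was closest to Psmf1 (0.825) and Ap2m1 (0.817) and most opposed to Rbm10 (−0.849), and Zic5 was closest to S100pbp (0.924) and most opposed to Gpalpp1 (−0.842). No gene led more than 1 of these rankings.

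**Figure D3:**
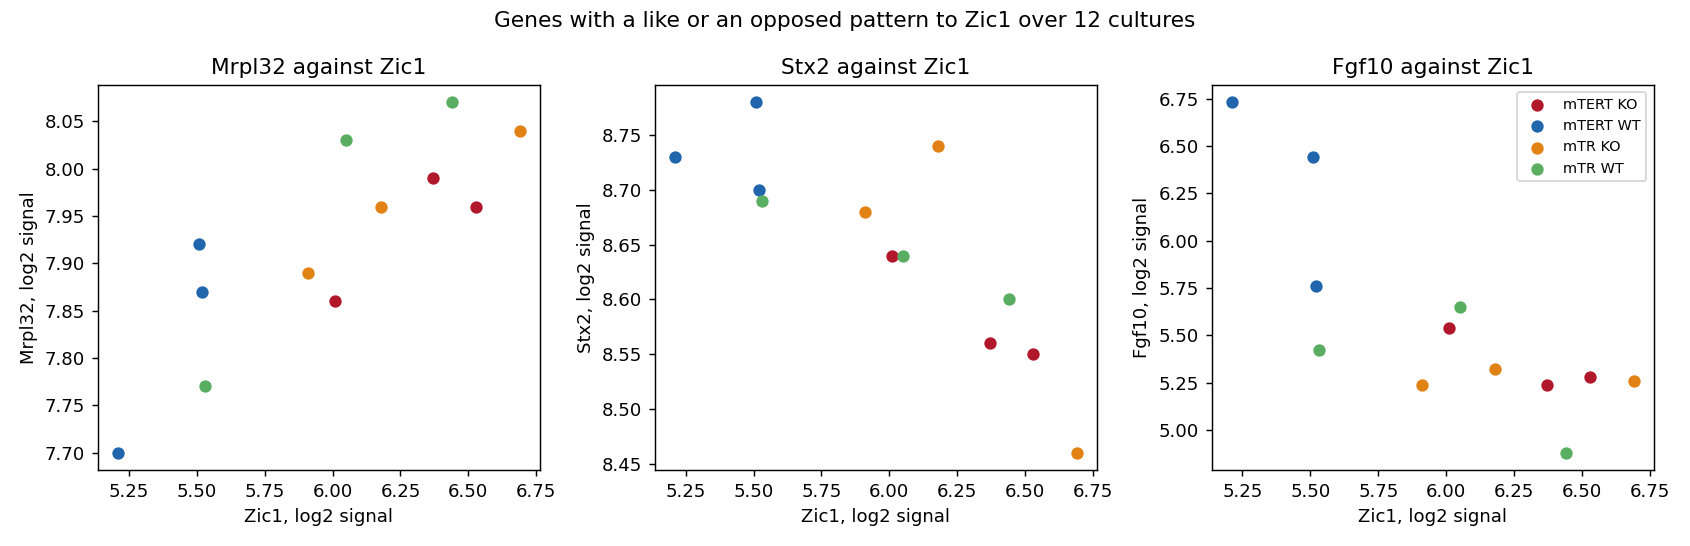
Log2 signal of Mrpl32, Stx2 and Fgf10 against that of Zic1; each point is a culture, coloured by group. Over the 12 cultures Mrpl32 correlates with Zic1 at 0.838, Stx2 at −0.836 and Fgf10 at −0.785, and the 3 mTERT WT cultures lie at the low end of Zic1.

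Genes that act with the Zic factors or mark the tissues they pattern were followed in 7 lists with 84 measured genes of 90 entries. None passed the test in mTERT KO or in mTR KO cultures (limma, 5% false discovery rate), against 0.00347% and 0% of all probe sets, and with the replicate block as a fixed term no probe set passed in the mTERT comparison either. An unadjusted p below 0.05 was found for 7 of the 84 in the mTERT and 11 in the mTR comparison, against 553 and 1679 of all 28853 probe sets. Since the lists were chosen with earlier results of these data known, nothing is read from these counts. The standard errors below come from the fit without pairs, and the counts of higher and lower genes include those above background in no culture. The values named below did not pass the test, with adjusted p = 1 in the mTERT comparison and of at least 0.839 in the mTR comparison.

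Of the 6 measured relatives of the Zic family, 3 were higher and 3 lower in mTERT KO than in mTERT WT cultures (median 0.03, against 0.00 over all probe sets). In mTR KO cultures 2 were higher and 4 lower (median −0.10, against 0.00 over all probe sets). Glis3, a Gli-related zinc-finger factor, differed by 0.31 ± 0.23 in the mTERT and by −0.39 ± 0.23 in the mTR comparison. Gli3, which in its cleaved form represses hedgehog targets, differed by −0.10 ± 0.23 and by −0.13 ± 0.23. Gli1, itself a target of hedgehog signals, passed background in 1 of 12 cultures.

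Among 11 hedgehog pathway genes 7 were higher and 4 lower in mTERT KO cultures (median 0.01), and 5 higher and 6 lower in mTR KO cultures (median −0.01). Ptch1, the hedgehog receptor and a target of the pathway, differed by −0.23 ± 0.17 in the mTERT and −0.20 ± 0.17 in the mTR comparison. Gas1, a co-receptor, differed by 0.40 ± 0.50 and 0.14 ± 0.50, and Boc, another co-receptor, by −0.17 ± 0.24 and −0.37 ± 0.24.

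The list of dorsal neural tube and neural crest genes, tissues where Zic genes are used, had 4 of 17 members higher and 13 lower in mTERT KO cultures (median −0.03), and 7 higher and 10 lower in mTR KO cultures (median −0.05). Pax3, a paired-box factor of neural crest and dermomyotome, read 5.11, 5.20 and 5.09 in mTERT KO cultures and 7.39, 6.14 and 5.46 in mTERT WT cultures, a difference of −1.20 ± 0.72. The groups did not overlap, in the direction opposite to Zic1, as for 3.09% of all probe sets. The mTERT KO values lay close to the background of their arrays, which was 4.93, 5.01 and 5.04. Among mTR cultures Pax3 read 7.83, 5.26 and 5.36 in mTR KO cultures and 6.84, 5.47 and 7.67 in mTR WT cultures, and the groups overlapped. Sox9, a factor of crest and cartilage, read 7.09, 6.96 and 6.63 in mTERT KO cultures and 6.67, 6.63 and 6.31 in mTERT WT cultures. Its difference was 0.36 ± 0.20, and it was higher in the knockout of each pair, as were 12.6% of all probe sets. Tfap2b, a crest factor, differed by −0.98 ± 0.44 in the mTR comparison. The roof plate signals Wnt1 and Wnt3a and the neural factors Atoh1 and Olig3 were above background in no culture, whereas 13 of the 17 passed in at least 3 cultures and Gdf7, Lmx1b and Msx1, also used in the roof plate, in all 12.

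Of 17 somite and dorsal dermis genes 9 were higher and 8 lower in either comparison, with medians of 0.00 in both. Of the 17, 9 passed background in at least 3 cultures and 6 in all 12. Myf5, a myogenic factor, was above it in no culture, but Myod1, another, passed in 6. Twist2, a factor of dermal fibroblasts, differed by 0.25 ± 0.37 in the mTERT and 0.32 ± 0.37 in the mTR comparison. Of 10 meningeal markers 6 were higher in mTERT KO cultures (median 0.07) and 3 in mTR KO cultures (median −0.14), with Foxc1, a forkhead factor of meninges and skull, at −0.79 ± 0.27 in the mTR comparison. The mTR groups did not overlap for Foxc1 (6.69 to 7.10 in mTR KO and 7.37 to 7.91 in mTR WT cultures), as with every knockout below every wild type for 6.07% of all probe sets.

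Limb and flank genes had opposite medians in the 2 comparisons, a difference that was not tested. In mTERT KO cultures 13 of 15 were higher, with a median of 0.27, and in mTR KO cultures 5 of 15, with a median of −0.25. All 15 passed background in at least 3 cultures, but only 6 in all 12. Large differences against these medians were those of Fgf10 in the mTERT comparison, −0.96 ± 0.23, and of Shox2 in the mTR comparison, 0.68 ± 0.23. Lhx9 and Hoxa13 had the sign of the mTR median, at −0.73 ± 0.28 and −0.62 ± 0.15 in that comparison. Hoxd13, a gene of the distal limb, read 7.29, 7.87 and 7.25 in mTERT KO cultures and 4.99, 6.67 and 6.65 in mTERT WT cultures, a difference of 1.37 ± 0.57. The 4.99 of mTERT WT 1 was below the background of its array, 5.05, and is only a bound. Hoxd13 stood at 7.93, 5.44 and 7.01 in mTR KO cultures and at 7.95, 8.33 and 8.40 in mTR WT cultures, a difference of −1.43 ± 0.57. In the list of 8 head and face genes 3 were higher in mTERT KO and 4 in mTR KO cultures (medians −0.07 and −0.01), and Alx1, a factor of the facial mesenchyme, differed by −1.14 ± 0.42 and −1.11 ± 0.42.

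**Figure D4:**
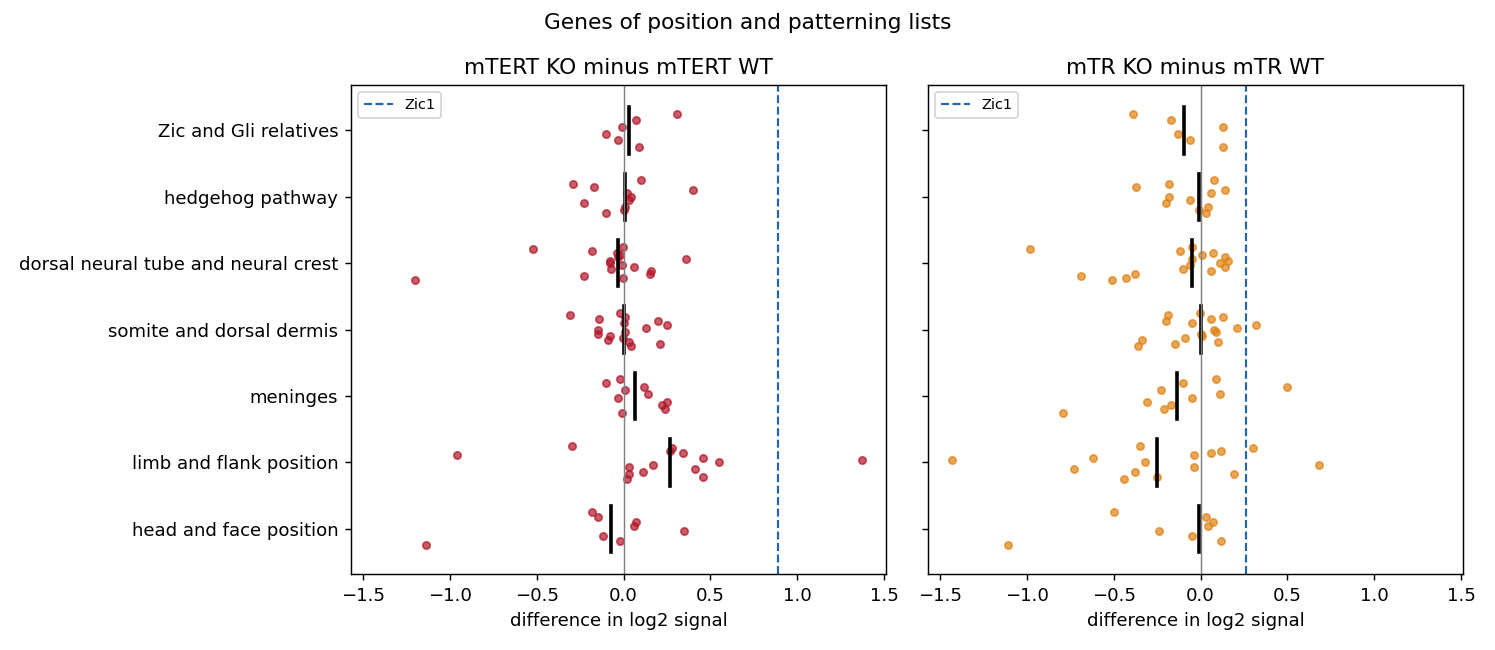
Difference in log2 signal, knockout minus wild type, for the genes of 7 lists in the mTERT and the mTR comparison; each point is a gene, the black bar is the median of the list and the dashed line is Zic1 (0.89 and 0.26). The limb and flank genes lie mostly to the right of 0 in the mTERT comparison (median 0.27) and to the left in the mTR comparison (median −0.25).

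Markers of other cells that could carry Zic1 RNA were read beside it. Of 18 neural and glial markers 3 were higher and 15 lower in mTERT KO than in mTERT WT cultures, with a median of −0.11. These counts include 8 markers that were above background in no culture, for which a direction has little meaning. The mean signal of all 18 per culture ran from 5.21 to 5.40 in mTERT KO and from 5.35 to 5.60 in mTERT WT cultures. It ran from 5.33 to 5.54 in mTR KO and from 5.34 to 5.59 in mTR WT cultures. Elavl3, Dcx, Snap25, Syt1, Pax6 and Neurod1, defining genes of neurons and their precursors, were above background in no culture, but 10 of the 18 markers passed in at least 3 cultures. Among these Tubb3, Map2, Stmn2, Sox2, Gad1, S100b and Nes, or 7 markers, passed in all 12. Stmn2, a neuronal gene, read 5.25, 6.80 and 6.24 in mTERT KO cultures and 7.05, 7.85 and 7.37 in mTERT WT cultures.

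Macrophage markers were lower by group mean in mTERT KO cultures for 11 of 12 genes (median −0.14), with culture means of 7.59 to 9.42 in mTERT KO and 7.87 to 9.44 in mTERT WT cultures. The pairs did not agree, and in pair 2 most of these markers were higher in the knockout. Cd68 read 8.13, 10.01 and 9.63 in mTERT KO cultures and 8.28, 9.84 and 10.08 in mTERT WT cultures. The spread was wide, as for Itgam, which differed by −0.22 ± 0.77 in the mTERT and 0.86 ± 0.77 in the mTR comparison. All 12 macrophage markers were higher by group mean in mTR KO cultures (median 0.78), with means of 7.66 to 9.72 in mTR KO and 6.76 to 8.84 in mTR WT cultures. Skeletal muscle markers were lower in mTERT KO cultures for 9 of 11 genes (median −0.06), with means of 5.76 to 6.18 in mTERT KO and 5.97 to 6.38 in mTERT WT cultures. Fibroblast markers averaged 10.30 to 10.98 in mTERT KO and 10.14 to 10.89 in mTERT WT cultures. Of these markers 10 were higher and 5 lower in mTERT KO cultures (median 0.02), and 9 higher and 6 lower in mTR KO cultures (median 0.10). Lum had the largest mTERT difference among them, 1.21 ± 1.01, against 0.30 ± 1.01 in the mTR comparison. It was higher in the knockout of each mTERT pair, as were 12.6% of all probe sets. The part of the cell mix in the Zic1 values was not tested.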

How the data were processed

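Total RNA of 12 fibroblast cultures had been hybridised to Affymetrix arrays, 1 per culture. The deposited values are log2 signals per probe set. GCOS 1.4, Affymetrix Expression Console and PLIER are named, without their roles, per the submitters' processing notes. How the arrays were normalized is not given in the sources used. Quantiles of the columns differed by at most 0.08, and the values were used as they stood. Genes were named from the platform annotation, in which 21789 of 28853 probe sets had 1 symbol, 1621 several and 5443 none; no symbol changed when matched by gene ID to RefSeq GRCm38.p6. Of 166 list entries 158 were measured, each by its brightest probe set, and 8 were not analysed here.

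Differences were estimated with limma 3.58.1 (R 4.3.3) from 1 mean per group over the 12 arrays (8 residual and 3.14 prior degrees of freedom), adjusted by Benjamini-Hochberg over all 28853 probe sets. Intervals are 95% intervals of that fit. Permutation tests used scipy 1.17.1 and were two-sided. The fit was tested on simulated data. Members and lists were chosen with earlier results of these data known. Named genes were the Zic genes, up to 4 genes per list with the largest difference among those above background on 3 arrays, and the 5 highest and 3 lowest correlations. Gli1, Foxc1's range, and the genes named as above or below background were chosen after their values were seen.

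The replicate numbers were checked as pairs on the 14426 brighter probe sets. Deviations from the group mean correlated at 0.674 to 0.790 for mTERT cultures of the same number and at −0.525 to −0.184 for others. Deviations cancel out within a group, so the negative values follow in part from the positive ones and are no separate support. The mTERT cultures of the same number were taken as pairs, from the positive values and the littermate design. In the mTR line the same numbers gave −0.377 to 0.289, so they were not.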

Additional observations from a re-analysis of the deposited data

How the results depend on the processing

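The call of Tert, the only one in the mTERT comparison, was lost (0 calls) with the replicate block as a fixed term in all 12 arrays or in the 6 mTERT arrays alone, with quantile normalization and with only the 6 arrays compared; leaving out single arrays gave 0 to 2 calls. The mTR comparison had 0 calls in each alternative except without mTR WT 2 (range 0 to 3). The comparison of lines had 1 call with the replicate block as a random term, 14 with array weights and 0 to 22 without single arrays, the most without mTR WT 2. No correlation between Zic genes passed in any alternative. The Zic1 difference was 0.77 to 1.03 in the mTERT, 0.02 to 0.47 in the mTR and −0.39 to −0.17 in the line comparison without single arrays, and 0.88 to 0.92, 0.24 to 0.55 and −0.35 to −0.27 in the others. With the replicate block as a fixed term the mTR difference of Zic1 stayed at 0.26 (adjusted p = 0.686), and the block changed no call of a Zic gene. Reversed in the mTR comparison were Zic2, at 0.03 without mTR KO 3 (range −0.39 to 0.03), and Zic5, at 0.14 with its other probe set, a setting added once the data had been seen; the cause was not tested. Against the 90th and 99th percentile of odorant receptor probe sets Zic2 passed in 8 and 1 and Zic5 in 10 and 0 cultures. Signal near background limits Zic2, Zic4 and Zic5, and 3 arrays per group limit the precision of Zic1.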
